A study of Mus musculus with 15 samples.

Results

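The ETS family was followed through 9 transcription factor genes: *Ets1*, *Ets2*, *Erg*, *Fli1*, *Elk3*, *Etv6*, *Elf1*, *Elf2* and *Elf4*. They were picked by gene name out of 53465 genes in a table of normalized counts, and each had a single row there. The table covers 3 populations sorted from B16-F0 melanomas, a mouse tumor line, grown for 15 days in CAG-GFP mice. These mice express GFP under a promoter that is active in all tissues, and the mice of the study were C57BL/6 animals of both sexes aged 8 to 14 weeks. From lineage-negative, CD34+, GFP+ cells, endovascular progenitors (EVP) were gated as CD31 lo VEGFR2 lo, transit amplifying cells (TA) as CD31 int VEGFR2 lo and definitive differentiated cells (D) as CD31 hi VEGFR2 hi, with 5 libraries of each population. All populations came from untreated tumors and differed by the gate alone. GFP marks host cells of any type, so the GFP gate served to separate host from tumor cells and did not select endothelium. Transcripts of 7 melanoma genes were still found in all populations, as given below. Nothing in the sources says that the 5 replicates were separate animals, so p-values measure the spread between these samples, which may be technical.

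ETS proteins bind DNA through a shared winged helix-turn-helix domain that reads a GGAA core, and different members can occupy the same sites. In endothelium they sit on the enhancers of genes such as *Cdh5*, *Kdr* and *Tie1*, often beside forkhead, GATA or SCL factors. Some members mainly activate (*Ets1*, *Ets2*, *Erg*, *Fli1*), *Etv6* is a repressor, and *Elk3* is a ternary complex factor that works with serum response factor and turns from repressor to activator when phosphorylated by MAP kinases.

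In GRCm38 coordinates, 4 of the 9 genes lie in 2 pairs. *Fli1* (ENSMUSG00000016087, chr9:32422204-32542861, minus strand) is followed 93359 bases further by *Ets1* (ENSMUSG00000032035, chr9:32636221-32757820, plus strand), and *Erg* (ENSMUSG00000040732, chr16:95359169-95586593, minus strand) is followed 115481 bases further by *Ets2* (ENSMUSG00000022895, chr16:95702075-95721051, plus strand). The genes of each pair thus point away from each other. The remaining 5 are on separate chromosomes: *Elk3* (ENSMUSG00000008398, chr10:93247414-93311135, minus strand), *Etv6* (ENSMUSG00000030199, chr6:134035700-134270158, plus strand), *Elf1* (ENSMUSG00000036461, chr14:79481194-79582494, plus strand), *Elf2* (ENSMUSG00000037174, chr3:51252720-51340663, minus strand) and *Elf4* (ENSMUSG00000031103, chrX:48411046-48463132, minus strand). All 9 are protein coding.

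RefSeq promoter entries (GRCm38.p6) were matched for 7 of the 9 genes, all but *Ets1* and *Fli1*, with 12 start sites. ETS genes can be bound by ETS proteins themselves, so the 250 bases before each start were searched on both strands for CCGGAAG and for AGGAAG, which share their last 5 letters and cannot start at the same base. CCGGAAG was found before 0 of the 12 starts, against 6.91% of 32851 promoters of the same length. AGGAAG was found before 4 of the 12 (a start each of *Erg*, *Elk3*, *Elf2* and *Elf4*), against 29.5% of the promoters. The windows of *Erg* and *Elk3*, which were higher in D, and of *Etv6*, which did not pass the test, are shown 5′ to 3′ because no annotated exon reaches into them, with AGGAAG in capitals. The *Erg* window (chr16:95586594-95586843, minus strand) belongs to the start furthest upstream, the *Elk3* window is chr10:93311160-93311409 on the minus strand and the *Etv6* window is chr6:134035450-134035699 on the plus strand.
Erg: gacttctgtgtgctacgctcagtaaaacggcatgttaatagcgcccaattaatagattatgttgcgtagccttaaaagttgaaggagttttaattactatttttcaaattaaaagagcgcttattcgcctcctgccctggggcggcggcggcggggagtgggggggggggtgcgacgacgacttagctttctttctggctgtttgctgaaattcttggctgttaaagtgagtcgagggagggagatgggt
Elk3: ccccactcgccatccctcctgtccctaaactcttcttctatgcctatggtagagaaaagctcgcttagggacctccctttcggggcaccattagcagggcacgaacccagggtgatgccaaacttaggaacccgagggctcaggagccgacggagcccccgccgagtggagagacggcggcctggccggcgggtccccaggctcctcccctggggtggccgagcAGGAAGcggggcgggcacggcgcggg
Etv6: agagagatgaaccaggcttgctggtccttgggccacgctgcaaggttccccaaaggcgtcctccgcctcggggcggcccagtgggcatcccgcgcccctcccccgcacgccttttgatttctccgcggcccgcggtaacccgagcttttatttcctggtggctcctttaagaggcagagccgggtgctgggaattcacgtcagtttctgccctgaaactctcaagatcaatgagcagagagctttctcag
Of these 3 windows, that of *Elk3* held the motif, close to the start, and those of *Erg* and *Etv6* did not. The match describes letters in a window and was not tied to any level below.

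Depth ran from 5394356 to 26513073 reads on genes per library, with a median of 19049194, and 3 reads corresponded to 1.81 to 10.5 normalized counts. Replicate 1 stood apart in each population by the share of its reads on the gene *Gm10800*. That share was 10.604% in EVP1, 8.691% in TA1 and 8.495% in D1, against at most 0.701%, in TA3, elsewhere. Replicate 1 also had the fewest reads on genes in each population (5394356 in EVP1, 9692677 in TA1 and 12456809 in D1). In these 3 libraries 75.9% to 96.2% of 1406 olfactory receptor genes had at least 1 read, against 2.70% to 65.1% in the other 12. By the olfactory share alone TA3 (65.1%) lay close to TA1 (75.9%). The sum of 8 pan-endothelial marker genes was 2216 to 4090 normalized counts in EVP, 5562 to 62394 in TA and 87260 to 142473 in D, and no marker was at 0 in every library of a population. *Pecam1* and *Kdr* are among these genes and encode the gated CD31 and VEGFR2, so part of this difference was set by the sort. The sum of 8 fibroblast marker genes ran the other way, from 840558 to 1494780 in EVP, 190986 to 606223 in TA and 979 to 4065 in D. The name EVP is therefore used here for the gate. In other mice, whose endothelial cells were labeled through *Cdh5*, the study found that label in most lineage-negative CD34+ tumor cells. In EVP1 to EVP4 *Tek* was the largest part of the endothelial sum (2193 of 2500 in EVP2). Its means were 1578 in EVP, 583 in TA and 2379 in D. Other marker sums were 5239 to 28942 in EVP, 5484 to 146345 in TA and 5052 to 10765 in D for 8 mural genes, and 2058 to 13054, 10023 to 45304 and 7379 to 12310 for 11 leukocyte genes. For 7 lymphocyte genes, of which 6 were at 0 in some D library, they were 86.2 to 675, 179 to 3580 and 13.9 to 260, and for 6 macrophage genes 1675 to 10476, 6769 to 34515 and 3399 to 11087. They were 29776 to 67410, 69334 to 176152 and 18213 to 47920 for 7 melanoma genes, 817 to 4737, 972 to 54818 and 19.9 to 1172 for 6 keratinocyte and epithelial genes and 8341 to 18769, 4402 to 6275 and 2889 to 5646 for 4 lymphatic genes. Sums were thus highest in a TA library for each of these lists but the lymphatic one, and their part in the results below was not tested. The lymphatic sum in EVP was mostly *Pdpn* (mean 13904 in EVP and 164 in D). *Prox1* (88.4 and 30.6) also had the higher mean in EVP, and *Lyve1* (43.2 and 338) and *Flt4* (39.1 and 3506) in D. In D the leukocyte sum was mostly *Lcp1* (mean 1350 in EVP, 6540 in TA and 7966 in D). Of the other leukocyte genes only *Fcer1g* (345 in EVP and 375 in D) also averaged higher in D than in EVP. Among TA libraries *Pecam1*, which encodes CD31, was 15414, 3137, 7783, 4502 and 372 normalized counts in replicates 1 to 5, so that TA5 lay within the EVP range of 119 to 613 although its gate was CD31 int.

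D exceeded EVP for 5 of the 9 ETS genes. *Ets1*, *Ets2*, *Erg*, *Fli1* and *Elk3* were 6.32 to 39.8 times as high in D as in EVP and passed the test (limma on log2(normalized count + 1), two-sided, Benjamini-Hochberg adjusted p under 0.05 over 25549 genes). *Etv6*, *Elf1*, *Elf2* and *Elf4* differed by at most 1.54-fold between the means of EVP and D and did not pass. The 5 called members are read against a background in which 7.46% of tested genes were called higher in D, 11.6% higher in EVP and 19.0% in either direction. All D libraries lay above all EVP libraries for 6 of the 9, the called members and *Elf1*. Such separation held for 7.52% of tested genes with D higher and for 10.2% with EVP higher. In bulk samples, fewer cells of a type and less RNA per cell cannot be told apart, and here the endothelial and fibroblast marker sums moved with the same contrast and their part in it was not tested.

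**Figure D1:**
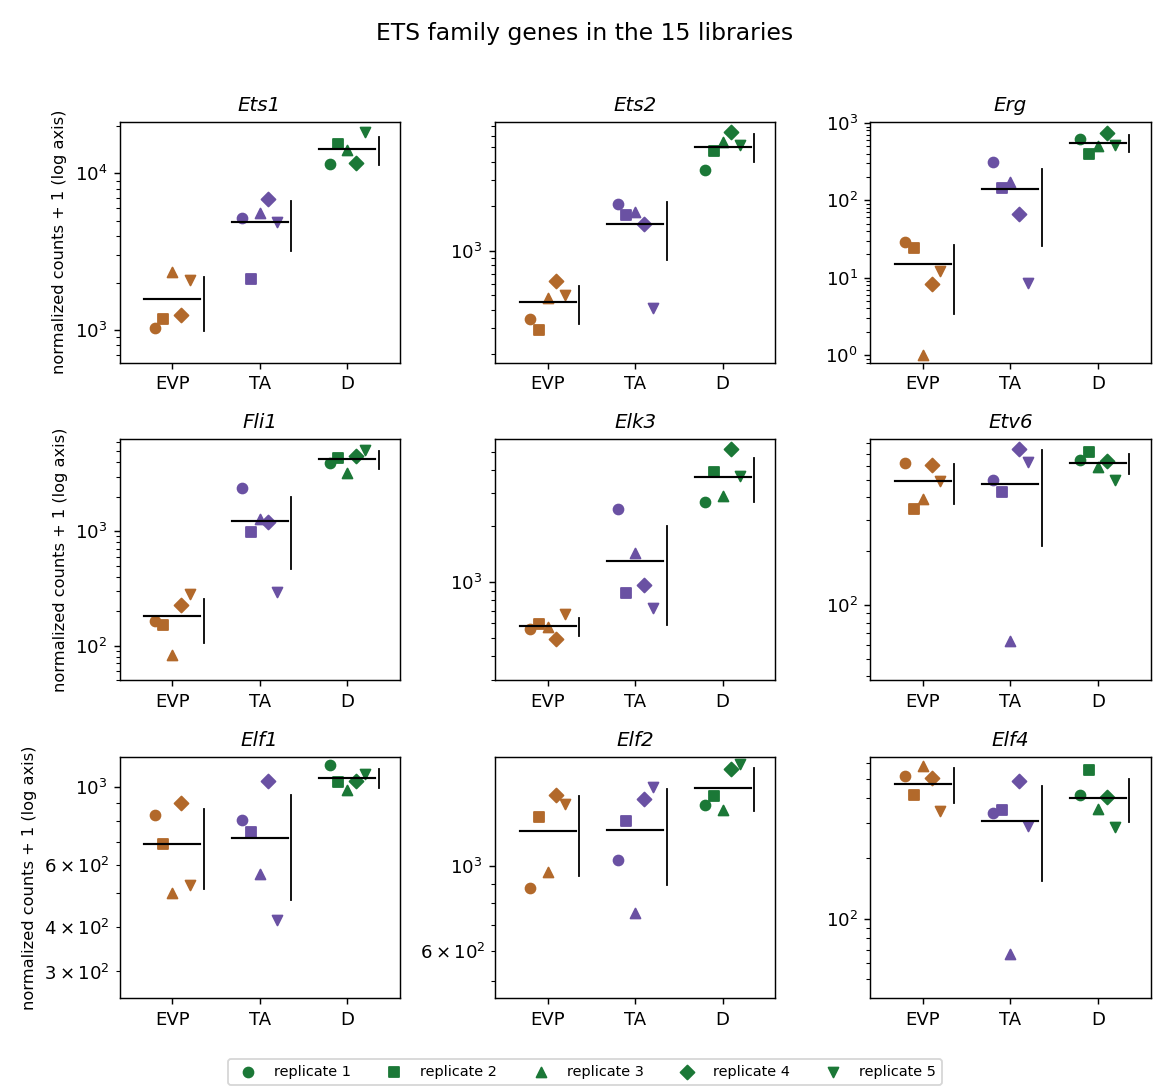
Normalized counts + 1 of the 9 ETS genes (vertical log axes, which differ between panels) in each of 5 EVP, 5 TA and 5 D libraries; symbols give the replicate number, the horizontal line the mean and the vertical line 1 SD. For *Ets1*, *Ets2*, *Erg*, *Fli1* and *Elk3* all D libraries lie above all EVP and all TA libraries, while *Etv6*, *Elf2* and *Elf4* overlap in every pair of populations.

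*Ets1*, an activator named after the avian leukemia virus oncogene and expressed in vessels that are forming, was the most abundant member. It measured 1036, 1173, 2333, 1245 and 2092 normalized counts in EVP replicates 1 to 5. In TA it measured 5159, 2113, 5584, 6835 and 4877 and in D 11499, 15393, 14183, 11695 and 18488. Each D library was thus above each TA library, while the lowest TA value, in TA2, fell below the highest EVP value, in EVP3. EVP minus D was -3.23 on the log2 scale (SE 0.29, 95% interval -3.84 to -2.62, adjusted p = 2.79e-07 by limma), or 9.04-fold between means.

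*Ets2*, the closest relative of *Ets1* and like it a target of MAP kinase phosphorylation, measured 344, 291, 482, 621 and 503 normalized counts in EVP. Values were 2056, 1732, 1828, 1507 and 412 in TA and 3494, 4720, 5472, 6409 and 5194 in D. Of the TA libraries 4 lay between the ranges of EVP and D, and TA5 lay inside that of EVP. The difference between EVP and D was -3.52 (SE 0.36, adjusted p = 1.15e-06 by limma), 11.3-fold between means.

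*Fli1*, an activator needed for vessel integrity and for megakaryocytes, was 162, 149, 81.8, 226 and 282 normalized counts in EVP. It was 2399, 975, 1286, 1192 and 294 in TA and 3948, 4385, 3224, 4566 and 5176 in D. The ranges of the 3 populations did not overlap, with TA5 just above the highest EVP library. EVP minus D was -4.66 (SE 0.43, adjusted p = 3.64e-07 by limma), 23.7-fold between means. The summed level of 5 megakaryocyte and platelet genes was 404 to 682 in EVP, 766 to 2628 in TA and 518 to 804 in D. In TA its largest part was *Pf4* (mean 1003). The part of these genes' cells in the level of *Fli1* was not tested.

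*Erg*, the nearest relative of *Fli1* and a keeper of endothelial identity in the adult, had the largest fold between EVP and D and the lowest level of the 9 in EVP and in TA. EVP libraries had 8, 18, 0, 9 and 16 reads of it, or 28.1, 23.5, 0, 7.19 and 11.1 normalized counts, and the library without a read had a limit of 2.45 normalized counts from 3 reads. The values were 310.2, 144, 172, 65.0 and 7.47 in TA and 622, 398, 500.3, 747 and 514 in D. TA5, with 12 reads, lay among the EVP libraries and the other 4 TA libraries lay above all of them. EVP minus D was -5.87 (SE 0.91, adjusted p = 1.12e-04 by limma), and its 95% interval of -7.79 to -3.95 was the widest of the 9.

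*Elk3*, the ternary complex factor also known as Net, was 558, 592, 573, 495 and 674 normalized counts in EVP. In TA it was 2475, 875, 1428, 965 and 729 and in D 2676, 3865, 2883, 5174 and 3681. The 3 ranges did not overlap, and TA1 came close to the lowest D library. EVP minus D was -2.62 (SE 0.28, adjusted p = 1.69e-06 by limma), 6.32-fold between means. *Elk3* shares 316 exonic bases, 6.95% of its exon length, with *Cdk17* on the opposite strand, and whether counting used strand is not given in the sources used here.

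The 3 ELF genes, related to one another and expressed in many blood and epithelial cell types, and *Etv6*, a repressor needed for blood formation in the bone marrow, were present in every library at 56 reads or more. *Elf1* was 829, 688, 501, 896 and 527 normalized counts in EVP and 1153, 1032, 977, 1037 and 1088 in D. Its D libraries lay above all EVP libraries and spread little, with a coefficient of variation of 6.27% against 25.6% in EVP. EVP minus D was -0.66 (SE 0.23, 95% interval -1.15 to -0.16), and adjusted p = 0.0623 by limma left it just outside the threshold. It passed in 10 of 29 alternative fits, among them edgeR, DESeq2 and limma without EVP4, TA4 or TA5 (adjusted p from 0.0169 to 0.157 over the alternatives). *Elf1* shares 327 exonic bases with *Wbp4* on the opposite strand, 4.85% of its exon length.

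*Elf2* ran from 878 to 1535 normalized counts in EVP, from 751 to 1613 in TA and from 1405 to 1851 in D. *Etv6* ran from 342 to 621 in EVP, from 62.5 to 745 in TA and from 500.4 to 719 in D. *Elf4*, known from lymphoid cells and from the control of quiescence, ran from 342 to 574 in EVP, from 65.9 to 486 in TA and from 286 to 550.2 in D. The ranges overlapped between all populations for these 3 genes. EVP minus D was -0.40 for *Elf2* (95% interval -0.87 to 0.06), -0.36 for *Etv6* (-1.39 to 0.66) and 0.24 for *Elf4* (-0.61 to 1.09). The intervals exclude a change of the size seen for *Elk3*, the smallest of the called members, and do not show that the levels were equal. TA3 was the lowest of the 15 libraries for *Etv6*, *Elf2* and *Elf4*, and TA5 was the lowest for *Elf1*. TA3 had the highest sum of 7 lymphocyte marker genes of all libraries (3580 normalized counts), and 65.1% of olfactory receptor genes had a read there.

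**Figure D2:**
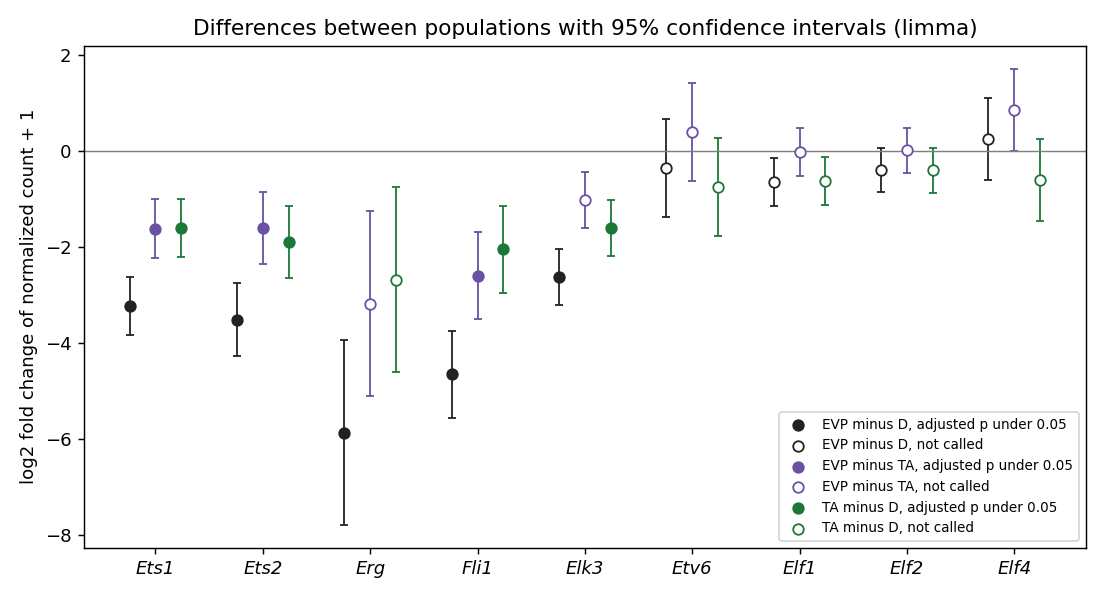
Log2 fold changes of normalized count + 1 for the 9 ETS genes with 95% confidence intervals from limma, as EVP minus D (black), EVP minus TA (purple) and TA minus D (green); filled points had adjusted p under 0.05 and open points did not. The 5 genes on the left lie below 0 in each comparison, from -5.87 (*Erg*, EVP minus D) to -1.02 (*Elk3*, EVP minus TA), and the 4 genes on the right lie between -0.75 and 0.85.

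Between EVP and TA, *Fli1*, *Ets1* and *Ets2* were higher in TA and no member was higher in EVP. The 3 of 9 called members stand beside 1.94% of tested genes called higher in TA, 1.56% higher in EVP and 3.50% in either direction. *Fli1* rose 6.82-fold between means (EVP minus TA -2.60, SE 0.43, adjusted p = 0.00356 by limma), *Ets2* 3.36-fold (-1.61, SE 0.36, adjusted p = 0.0177) and *Ets1* 3.12-fold (-1.62, SE 0.29, adjusted p = 0.00543). *Elk3* (-1.02, adjusted p = 0.051 by limma) and *Erg* (-3.18, adjusted p = 0.066) did not pass, although *Elk3* was separated between the populations in all libraries, as was *Fli1*. Separation with TA higher held for 2 members against 1.59% of tested genes, and with EVP higher for 0 members against 2.70%. *Elf1* (-0.02) and *Elf2* (0.01) had nearly the same fitted level in EVP and TA, with 95% intervals of -0.52 to 0.47 and -0.46 to 0.47. *Etv6* (0.39) and *Elf4* (0.85, 95% interval 0.00 to 1.71, adjusted p = 0.323 by limma) had the higher fitted level in EVP. The sign for *Elf2* turned under 5 other scalings or tools and that for *Etv6* under array weights.

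The calls between EVP and TA changed when the replicate 1 libraries were left out. Without replicate 1 of each population, limma called 0 of the 9 members (5 had an unadjusted p under 0.05), edgeR called 1, *Fli1*, and DESeq2 called 5. Calls over all tested genes moved too. With all libraries limma, edgeR and DESeq2 called 893, 663 and 1900 of them, and without replicate 1 they called 104, 312 and 1762. The fold changes kept their direction there, at -2.28 for *Fli1*, -1.45 for *Ets1* and -1.37 for *Ets2*. With all libraries edgeR and DESeq2 each called 5, adding *Erg* and *Elk3*, and so did limma without TA5, with *Erg* at -4.01 and *Elk3* at -1.19. *Ets2* lost its call without EVP2 (-1.47), TA1 (-1.45) or TA3 (-1.49), with array weights (-1.01) and in a fit of EVP and TA alone (-1.61), and *Elk3* gained a call without TA2 (-1.12).

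Between TA and D, *Ets1*, *Ets2*, *Fli1* and *Elk3* were higher in D. These 4 of 9 compare with 4.31% of tested genes called higher in D, 8.21% higher in TA and 12.5% in either direction. TA minus D was -1.61 for *Ets1* (SE 0.29, adjusted p = 0.00107 by limma), -1.91 for *Ets2* (SE 0.36, adjusted p = 0.00157), -2.06 for *Fli1* (SE 0.43, adjusted p = 0.00331) and -1.61 for *Elk3* (SE 0.28, adjusted p = 7.55e-04). *Erg* was 3.98 times as high in D between means and did not pass (-2.68, SE 0.91, adjusted p = 0.0648 by limma); it did pass without TA1 (-3.15) or EVP3 (-2.68). The D libraries lay above all TA libraries for 5 members, *Erg* included, against 3.69% of tested genes with D higher and 5.56% with TA higher. *Elf1* was -0.63 (adjusted p = 0.095 by limma), *Elf4* -0.61, *Etv6* -0.75 and *Elf2* -0.41, and none of these 4 passed. *Elf1* passed without TA4 (-0.78). Without replicate 1 limma and edgeR called the same 4 members and DESeq2 also called *Erg*. The 3 comparisons share libraries, so their values for a gene are not independent of each other.

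Placed on a scale from the EVP mean (0) to the D mean (1) of log2(normalized count + 1), the TA mean was at 0.50 for *Ets1*, 0.46 for *Ets2*, 0.54 for *Erg*, 0.56 for *Fli1* and 0.39 for *Elk3*. The individual TA libraries were spread widely along it. TA1 stood highest for *Erg* (0.86), *Fli1* (0.83), *Elk3* (0.80) and *Ets2* (0.64), and TA4 stood highest for *Ets1* (0.68). TA5 lay at the EVP mean for *Ets2* (-0.02) and *Erg* (-0.02) and near it for *Elk3* (0.13) and *Fli1* (0.18), yet it was at 0.53 for *Ets1*. TA2 was at 0.16 for *Ets1* and 0.23 for *Elk3* and between 0.55 and 0.67 for *Fli1*, *Ets2* and *Erg*. The order of the 5 TA libraries by *Fli1* and by *Elk3* was TA1, TA3, TA4, TA2, TA5 from high to low. *Pecam1* and *Kdr*, which encode the gated CD31 and VEGFR2, and *Cdh5* gave the same order. *Ets2* and *Erg* exchanged TA4 and TA2 in that order, and *Ets1* ran TA4, TA3, TA1, TA5, TA2. TA5 also had the highest sum of 8 mural cell marker genes (146345 normalized counts, against 5052 to 37519 in the other 14 libraries) and TA4 the highest sum of 11 leukocyte genes (45304), and their part in the levels of *Ets1* was not tested.

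**Figure D3:**
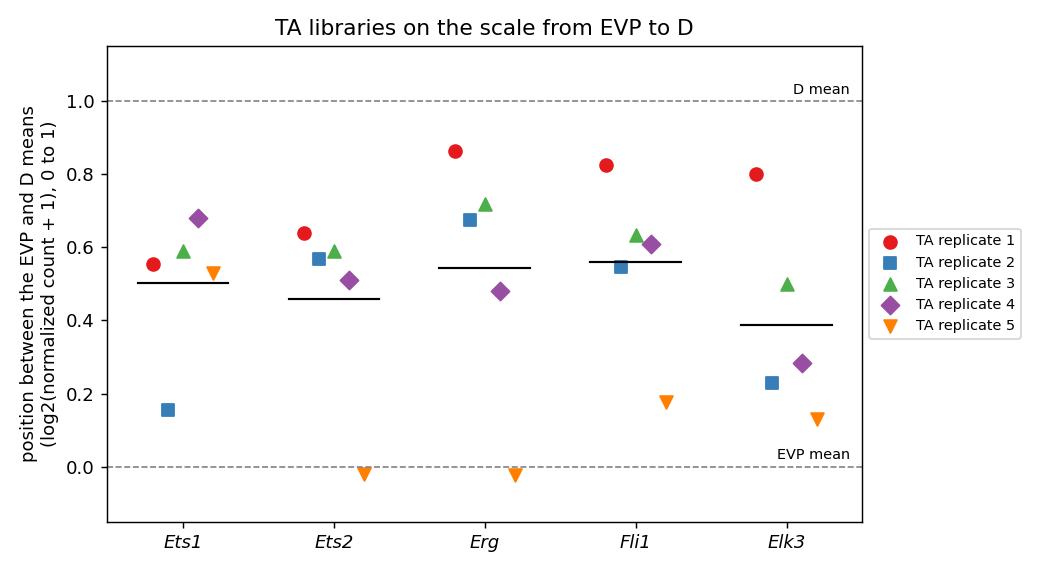
Position of each TA library between the EVP mean (0) and the D mean (1) on the log2(normalized count + 1) scale for the 5 ETS genes that were higher in D; symbols and colors give the replicate and the line gives the TA mean. TA5 is near 0 for *Ets2* and *Erg* and at 0.53 for *Ets1*, whereas TA2 is at 0.16 for *Ets1* and 0.23 for *Elk3*.

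To compare levels between genes, normalized counts were divided by exon length in kb. In EVP the mean level per kb ran *Ets1* (186), *Elf2* (129), *Elk3* (127), *Elf1* (102), *Etv6* (82.0), *Ets2* (77.5), *Elf4* (76.4), *Fli1* (51.7) and *Erg* (4.03). Neighbors in this order overlapped between libraries except *Fli1* and *Erg*. In TA the order was *Ets1* (580 ± 205, SD, n = 5), *Fli1* (353 ± 218), *Elk3* (284 ± 156), *Ets2* (261 ± 111), *Elf2* (130), *Elf1* (106), *Etv6* (79.1), *Elf4* (49.6) and *Erg* (40.3), with overlap between all neighbors. In D the order was *Ets1* (1681 ± 341), *Fli1* (1222 ± 209), *Ets2* (875 ± 185), *Elk3* (803 ± 217), *Elf2* (168), *Erg* (161), *Elf1* (157), *Etv6* (103) and *Elf4* (65.2). There *Elk3* was separated from *Elf2* and *Elf1* from *Etv6*, and the other neighbors overlapped.

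The summed level of the 9 genes per kb was 836 ± 87.1 in EVP, 1882 ± 555 in TA and 5236 ± 668 in D (SD, n = 5 each). *Ets1*, *Ets2*, *Erg*, *Fli1* and *Elk3* together held 53.1% of it in EVP (47.1% to 60.6% over libraries), 79.3% in TA (70.0% to 90.3%) and 90.5% in D (88.6% to 91.9%). The share of *Fli1* went from 6.10% in EVP to 17.5% in TA and 23.3% in D. Without division by length it was 3.14%, 9.92% and 13.5%, in the same order. *Elk3* held 15.3%, 14.6% and 15.2%. The summed level of *Etv6*, *Elf1*, *Elf2* and *Elf4* was 390 ± 54.2 per kb in EVP and 493 ± 29.4 in D. These sums describe members already tested singly and carry no test.

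**Figure D4:**
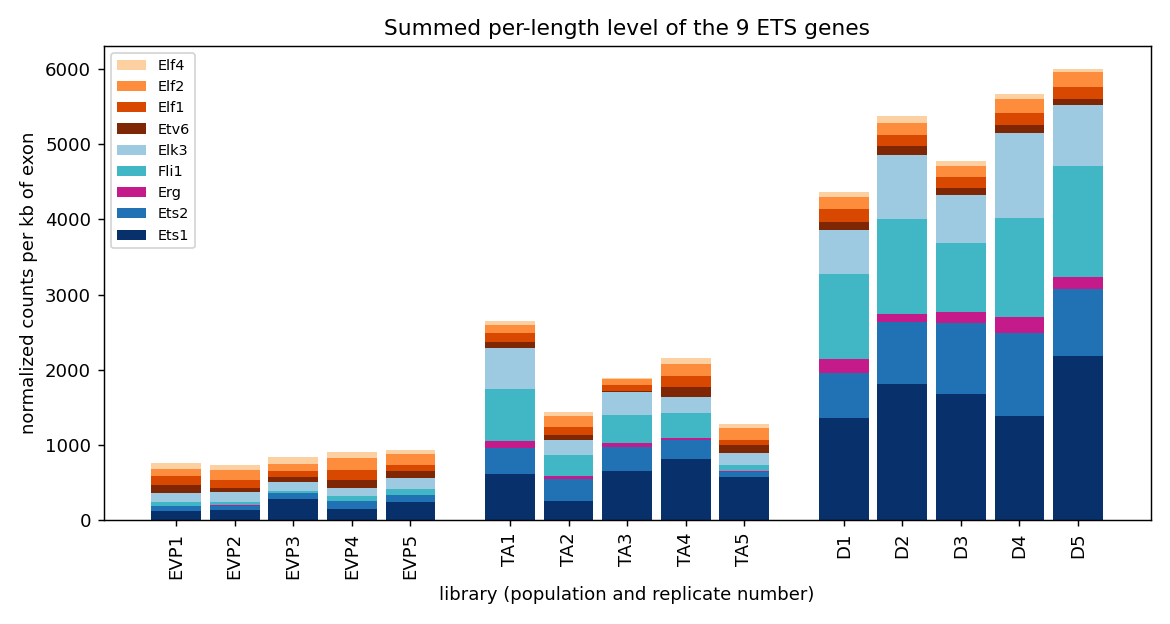
Summed level of the 9 ETS genes in each of the 15 libraries, as normalized counts per kb of exon (vertical axis, from 0), stacked by gene with *Ets1* at the bottom and *Elf4* on top. The sums lie between 736 and 935 in EVP, 1277 and 2652 in TA and 4359 and 6007 in D, and the 4 genes in brown to orange stay narrow bands while the blue and pink ones widen.

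Of 18 other ETS genes in the table, 13 were tested, and 2 of them were called between EVP and D, a share near the 19.0% of all tested genes. *Etv4*, of the PEA3 group, averaged 96.1 ± 46.1 normalized counts among EVP libraries against 229 ± 58.2 among D libraries (SD, n = 5; EVP minus D -1.36, adjusted p = 0.0243 by limma). *Elk1*, a ternary complex factor like *Elk3*, went the opposite way to it, with 273 ± 46.0 in EVP against 151 ± 52.9 in D (0.91, adjusted p = 0.0417 by limma). Without replicate 1 limma called neither, with 3 of the 13 at an unadjusted p under 0.05, edgeR called 0 and DESeq2 called *Etv4* and *Ehf*. Between EVP and TA limma and edgeR called 0 of the 13 (3 and 1 had an unadjusted p under 0.05) and DESeq2 called 1, *Etv3*.

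*Spi1*, which encodes the myeloid and B cell factor PU.1, was higher in TA than in D. It was 157, 300, 696, 1773 and 658 normalized counts in TA and 45.3 to 124 in D (TA minus D 2.62, SE 0.83, adjusted p = 0.048 by limma), and without replicate 1 limma lost the call while edgeR and DESeq2 kept it. TA4, its highest library, also had the highest summed leukocyte and macrophage marker levels (45304 and 34515 normalized counts), which moved with it. Other ETS genes that averaged 100 normalized counts or more in a population were *Etv1* (162 in EVP, 148 in TA, 89.3 in D; 562 in EVP1 and 53.9 to 71.9 in the other 4 EVP libraries), *Etv3* (326, 561, 399.6), *Etv5* (322, 267, 238), *Elk4* (516, 400.1, 646) and *Gabpa* (688, 740, 868), and none passed with limma. *Etv2*, which starts the endothelial program in the embryo, had 1 read in all 15 libraries together. It was not tested, nor were *Fev*, *Etv3l*, *Elf5* and *Spdef*.

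Endothelial genes known as ETS targets mostly went in the direction of the 5 members, in a list of 24 chosen with earlier results of these data known. All 8 pan-endothelial marker genes are in this list, so its direction repeats their contrast and is not separate evidence. Between EVP and D 20 were higher in D (7.46% of all tested genes were), 2 were higher in EVP (11.6% were) and 2, *Tek* (-0.72) and *Lmo2* (-1.11), were not called. The median EVP minus D was -6.76 over the list, against 0.46 over all tested genes and -2.62 over the 9 ETS genes. The sort used CD31 and VEGFR2, so *Pecam1* and *Kdr* are not results, and without them 18 of 22 were higher in D. The largest differences were in *Robo4*, a guidance receptor of quiescent vessels (-8.39), *Cldn5*, a tight junction protein (-7.98), and *Dll4*, a Notch ligand (-7.67). The 2 that were higher in EVP were *Heg1*, a junctional receptor (9309 ± 3998 normalized counts in EVP against 3460 ± 731 in D), and *Thbd*, which encodes thrombomodulin (3531 ± 1853 and 1603 ± 477). When replicate 1 was left out, limma and edgeR each called 20 higher in D and only *Heg1* higher in EVP, and DESeq2 called 19 and 2. Between EVP and TA 18 were higher in TA and 2 in EVP (16 and 2 without *Pecam1* and *Kdr*), against 1.94% and 1.56% of all tested genes. Without replicate 1 limma called 2 higher in TA and 0 in EVP, edgeR 10 and 1, and DESeq2 18 and 3. Between TA and D 17 were higher in D and 0 in TA (15 and 0 without *Pecam1* and *Kdr*), against 4.31% and 8.21% of all tested genes. There 22 of the 24 had an unadjusted p under 0.05, edgeR called 8 and DESeq2 18, and without replicate 1 limma called 16, edgeR 19 and DESeq2 19.

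Partners and regulators of ETS proteins were mixed. Of 20 tested genes D exceeded EVP for 7 and EVP exceeded D for 3, against 7.46% and 11.6% of all tested genes, with a median EVP minus D of 0.02. Higher in D were *Tal1*, which encodes SCL (-6.04), *Spry4* (-4.57), *Gata2* (-3.62), *Dusp6* (-1.89), *Foxo1* (-1.67), *Mapk3*, which encodes ERK1 (-1.53), and *Gabpb1* (-1.18). *Spry4* and *Dusp6* are inhibitors of the MAP kinase pathway that the pathway itself induces. *Runx1*, a partner of *Ets1* in blood cells, was higher in EVP, at 1239 ± 238 normalized counts against 26.7 ± 17.0 in D (5.89, SE 0.61, adjusted p = 1.35e-06 by limma). Higher in EVP too with limma were *Gata3* (2.46) and *Spry2* (0.80), another MAP kinase inhibitor. With all libraries edgeR called neither *Gata3* nor *Spry2*, and DESeq2 called *Spry2* but not *Gata3*. When replicate 1 was left out, limma called *Gata3* but not *Spry2*, and edgeR and DESeq2 called both. *Srf*, the partner of *Elk3*, was 307 ± 76.1 in EVP, 188 ± 75.2 in TA and 254 ± 46.2 in D and passed in no comparison. Between EVP and TA *Tal1*, *Gata2*, *Spry4* and *Dusp6* were higher in TA with limma and 0 were higher in EVP. Of all tested genes 1.94% and 1.56% were. There edgeR called *Tal1* and *Spry4*. Without replicate 1 limma called 0 of the 20 (7 had an unadjusted p under 0.05), edgeR called *Tal1* and DESeq2 called these 4 and *Lyl1*. Between TA and D 5 were higher in D and 2, *Runx1* and *Gata3*, were higher in TA, against 4.31% and 8.21% of all tested genes.

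For each ETS gene the 3 tested genes with the most similar pattern were found by Pearson's r of log2(normalized count + 1) over the 15 libraries, which share the differences between populations and in depth. *Fli1* was followed most closely by *Afap1l1* (r = 0.995), *Pecam1* (0.989) and *Plxnd1* (0.988). *Pecam1* encodes the gated CD31 and was not among the 3 nearest to *Fli1* with population means removed. *Erg* was followed by *Rhbdl2* (0.978), *Crim1* (0.976) and *Btnl9* (0.971), *Ets2* by *Eva1c* (0.983), *Bambi* (0.981) and *Upp1* (0.981), and *Elk3* by *Degs1* (0.983), *Ecscr* (0.981) and *Pola2* (0.980). With population means removed, *Afap1l1* was still the nearest gene to *Fli1* (0.974) and *Rhbdl2* to *Erg* (0.944). *Ets1* was followed by *Tspan12* (0.976), *Chst2* (0.973) and *Stc1* (0.969), and for *Ets1*, *Ets2*, *Elk3* and *Elf1* none of the 3 nearest genes stayed among the nearest 3 once population means were removed. For the genes that were not called, the nearest were *Cpsf4* for *Etv6* (0.959), *Rbfox3* for *Elf1* (0.873), *Emc3* for *Elf2* (0.934) and the pseudogene *Hcfc1r1-ps1* for *Elf4* (0.930).

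Among the members themselves, the pairs that tracked each other across populations did not all do so within them. *Fli1* and *Ets2* had r = 0.963 over the 15 libraries and 0.75 with population means removed. *Fli1* and *Erg* had 0.941 and 0.78. Of the neighboring genes, *Ets1* and *Fli1* on chromosome 9 had 0.891 and 0.03, and *Erg* and *Ets2* on chromosome 16 had 0.879 and 0.46. *Ets1* and *Erg* had 0.734 and -0.42. *Etv6* and *Elf4* had 0.864 and 0.909, and TA3 was the lowest library for both. These correlations are descriptions over 15 libraries and carry no test.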

How the data were processed

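RNA of 15 sorted populations (5 EVP, 5 TA, 5 D) was amplified by a modified Smart-Seq2 protocol. Per the labels and methods, the authors aligned reads to the mouse genome (GRCm38/mm10) with STAR 2.5.3a, counted them per gene with HTSeq, and deposited counts divided by DESeq2 1.10.1 size factors. The deposited values are a normalized signal: 100% were whole multiples of the value of 1 read (tolerance 0.001), so whole reads were recovered for the count tests. Depth was 5394356 to 26513073 reads on genes per library, and limits from 3 reads cover counting error only.

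Genes averaging 5 normalized counts or more (25549 of 53465; 6716 had no value above 0) were tested with limma 3.58.1 in R 4.3.3 (log2(normalized count + 1), trend, two-sided, all 15 libraries, no block), with Benjamini-Hochberg adjustment over all tested genes. edgeR 4.0.16, DESeq2 1.42.0, pseudocounts, filters, scalings, a replicate block, left-out libraries and, for shares among members, values not divided by length were alternatives. Log2 fold changes understate changes of low genes. Exon lengths came from the GENCODE annotation of GRCm38 (99.8% of genes matched). The procedure was tested on simulated data: of 197 genes changed by 3 on the log2 scale between EVP and D among 23256, limma recovered 66.5% with 8 others called, edgeR 62.9% with 3 and DESeq2 81.2% with 122. The simulated libraries shared no effect by replicate number, and far fewer genes were changed than the 19.0% called between EVP and D. Recovery and false calls in the real libraries may therefore differ from these figures.

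The members and gene lists were chosen with earlier results of these data known. All 9 members were described. Other ETS genes were named when called or when averaging 100 normalized counts or more in a population, targets by the 3 largest and 2 smallest log2 fold changes between EVP and D, and partners when called, at most 8 by size; *Heg1*, *Thbd*, *Tek*, *Lmo2*, *Lyl1*, *Ehf*, *Gata3*, *Spry2*, *Mapk3*, *Gabpb1*, *Srf* and *Etv2* and the other untested ETS genes were named after their values were seen where that rule did not reach them. Marker lists for endothelial, fibroblast, mural, leukocyte, lymphocyte, macrophage, megakaryocyte, melanoma, keratinocyte and lymphatic cells were summed per library. *Mrtfa* had no row under that name and is listed as *Mkl1*.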

Additional observations from a re-analysis of the deposited data

Results flagged for a closer look

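In 4 of the 27 sets of 5 libraries (9 genes in 3 populations) the lowest library lay far from the others by Dixon's test; chance flags about 1 in 20 sets. All 4 were TA libraries. *Ets1* was 2113 normalized counts in TA2, against 4877 to 6835 in the other TA libraries, and TA2 had the highest sum of 6 keratinocyte and epithelial genes (54818 normalized counts) of all libraries. *Ets2* was 412 in TA5, against 1507 to 2056, and TA5 had *Pecam1* at 372. *Etv6* was 62.5 in TA3, against 428 to 745, and *Elf4* was 65.9 in TA3, against 290.2 to 486. TA3 also had the highest sum of 7 melanoma genes (176152 normalized counts). Whether these marker sums had a part in the low values was not tested.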

How the results depend on the processing

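In the EVP versus D comparison *Ets1*, *Ets2*, *Erg*, *Fli1* and *Elk3* passed in 29 of 29 alternatives, and 5 or 6 members were called when libraries were left out. Between TA and D *Ets1*, *Ets2*, *Fli1* and *Elk3* passed in 29 of 29, and 4 or 5 members were called. Between EVP and TA *Fli1* passed in 27, *Ets1* in 26, *Ets2* in 22, *Elk3* in 8 and *Erg* in 7 of 29. There 5 members were called with a pseudocount of 8, with libraries scaled to the same total, with quantile normalization, with edgeR and with DESeq2, and 0 to 5 when libraries were left out (0 without replicate 1). Of 2 alternatives chosen after seeing the data, leaving out TA3 as well also gave 0, and leaving out TA5 as well gave 3 (*Erg*, *Ets2* and *Fli1*) and 815 genes in all. All tested genes called between EVP and TA went from 893 to 1900 with DESeq2 and to between 5 and 1214 with libraries left out. Array weights gave 7609 in place of 4859 between EVP and D and 5054 in place of 3199 between TA and D, and quantile normalization gave 2117 for TA and D. The cause was not tested. Quantile normalization also moved the median of all genes between EVP and D from 0.46 to -0.05, and turned the split of calls from 2952 higher in EVP and 1907 in D to 1920 and 1983. For TA and D the split went from 2098 higher in TA and 1101 in D to 1206 and 911. Scaling to the same total turned the EVP and TA split from 398 higher in EVP and 495 in TA to 237 and 714.

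Direction turned in the EVP and TA comparison for 3 genes near 0 or not called. *Elf2* was -0.17 with libraries scaled to the same total, -0.021 with quantile normalization, -0.077 with array weights, -0.030 with edgeR and -0.0058 with DESeq2, and -0.16 to 0.20 with libraries left out (-0.17 without replicate 1 and TA3). *Etv6* was -0.13 with array weights and from -0.39 to 0.71 with libraries left out. *Elf1* was -0.25 to 0.13 with libraries left out. In a fit with the replicate block, 6 members and 5710 genes were called between EVP and D, 3 and 1262 between EVP and TA, and 5 and 4047 between TA and D, *Elf1* being added against D. Same-numbered samples deviated together with correlations from 0.059 to 0.689, -0.14 to 0.603 and -0.0042 to 0.491, and 12 of 15 matches were best with the same number, all but those of replicate 3. Replicates 4 and 5 of every population had 2.70% to 4.55% of olfactory receptor genes with a read, against 13.6% to 96.2% in replicates 1 to 3. This is a hint from the data that a number marks something shared; since not every correlation was over 0.1 and no label ties the numbers, they were not taken to pair samples. Depth limits *Erg* in EVP, with at most 18 reads in a library.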
